A study of Mus musculus with 3 samples.

Results

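Described here are 8 miRNAs known to be induced by injury, p53, hypoxia, growth signals or the transcription factor CREB, out of 602 miRNAs counted in sorted Müller glia (MG). They are miR-21 (MIMAT0000530), miR-31 (MIMAT0000538), miR-34a (MIMAT0000542), miR-210 (MIMAT0000658), miR-221 (MIMAT0000669), miR-222 (MIMAT0000670), miR-132 (MIMAT0000144) and miR-212 (MIMAT0000659), chosen for their known biology and found in the table by their miRBase identifiers. All 8 were present in the table. They were not chosen by a measured value, although results of these data were known when the list was made.

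MG span the retina from the photoreceptors to the vitreous and support its neurons. Gliosis is their change in shape and gene expression when the tissue is damaged. The study asked which miRNAs change in reactive MG and whether the change resembles the loss of Dicer, the enzyme that cuts precursors into mature miRNAs. The adult mice carried Rlbp1-CreER, which drives a tamoxifen-inducible Cre in MG, and a tdTomato reporter that Cre switches on, and tdTomato-positive cells were purified by fluorescence activated cell sorting. Each condition was 1 pooled sample: 40 retinas gave the wild type sample, 44 gave the light damage (LD) sample, collected 7 days after 8 h under 10000 lux, and 26 came from Dicer-cKO mice, Rlbp1-CreER:tdTomato:Dicerf/f, 1 month after the deletion. All 3 groups carried the CreER driver and the reporter and received tamoxifen (75 mg/kg). The mice for LD had been crossed to an albino Swiss Webster strain with the light-sensitive RPE65 variant, and the wild type and Dicer-cKO data came from an earlier study, so any effect of strain or of the separate runs cannot be told apart from that of LD. A single sample stood for each condition, which allowed neither a replicate spread nor a test, and every interval below is an exact 95% Clopper-Pearson interval that covers counting error only. In bulk samples of this kind, fewer cells of a type and less RNA per cell cannot be told apart.

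A mature miRNA guides an Argonaute protein to messenger RNAs that pair with its seed, bases 2 to 8 counted from the 5′ end, and lowers their translation or stability. The 8 miRNAs are grouped here by what is known to switch them on. miR-21 is induced in many injured and inflamed tissues and in reactive astrocytes, and miR-31 is best known from wound repair and cancer. miR-34a is a direct target of the tumor suppressor p53 and restrains cell division. miR-210 is induced by the hypoxia-inducible factor. miR-221 and miR-222 follow growth signals and repress the cell cycle inhibitor p27, and miR-132 and miR-212 are induced through CREB when neurons are active.

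The mature sequences are given because the seeds define the families in the list. They were matched by name to a RefSeq table (build GRCm38.p6) that pairs no miRBase identifiers with names, and all 8 were found. Each is written 5′ to 3′ with its seed in capitals, and the order is by role.
miR-21: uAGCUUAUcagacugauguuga
miR-31: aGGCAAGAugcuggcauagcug
miR-34a: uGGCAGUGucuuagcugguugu
miR-210: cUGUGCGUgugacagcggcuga
miR-221: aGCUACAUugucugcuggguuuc
miR-222: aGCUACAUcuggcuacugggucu
miR-132: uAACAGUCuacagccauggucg
miR-212: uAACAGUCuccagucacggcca

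The 8 sequences held 6 distinct seeds, since miR-221 shared its seed with miR-222 and miR-132 shared its seed with miR-212. Over the whole length, seed included, miR-132 and miR-212 were identical at 17 of 22 positions compared without gaps, and miR-221 and miR-222 at 11 of 23. Both families also lie together in the genome. The hairpins of miR-132 (mature sequence at chr11:75173723-75173744, + strand) and miR-212 (chr11:75173443-75173464, + strand) are 203 bases apart, and those of miR-221 (chrX:19146307-19146329, - strand) and miR-222 (chrX:19146901-19146923, - strand) are 504 bases apart. The others lie alone on this list. miR-21 (chr11:86584120-86584141, - strand) is inside the span of the protein-coding gene Vmp1, and miR-31 (chr4:88910614-88910635, - strand) inside that of the long noncoding RNA Gm49890. No other gene of the table overlapped the hairpins of miR-34a (chr4:150068473-150068494, + strand), miR-210 (chr7:141221407-141221428, - strand), miR-221, miR-222, miR-132 or miR-212. Among the other mature mouse miRNAs of the table, miR-21c shared the seed of miR-21, miR-34b-5p, miR-449a-5p and miR-449c-5p shared that of miR-34a, and miR-1928 shared that of miR-221 and miR-222, and none shared the seed of miR-31 or miR-210. Whether the assay separates such relatives was not tested.

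The values are NanoString counts, that is, tagged mature miRNAs counted without amplification, from which 1 constant per sample had been subtracted with a minimum of 1, as the decimals shared by the control rows show, before each sample was multiplied by 1 factor (1.15 in wild type, 2.04 in LD and 4.42 in Dicer-cKO MG) that made the geometric mean of 4 housekeeping mRNAs equal. The 4 did not move alike, since the LD ratio was 0.475 for Gapdh, 1.04 for B2m, 1.18 for Actb and 1.71 for Rpl19 after this scaling. Before this factor, the miRNA counts summed to 678721, 230232 and 44258, respectively. How low a count can be read was judged from the controls: of the 14 ERCC rows, the 8 of lowest mean were taken as the 8 negative controls the study names. The highest of them, above the subtracted background, was 23.4 counts in wild type, 31.5 in the LD sample and 38.6 in the Dicer-cKO sample, which multiplied by the factor is 27, 64.1 and 170.7 normalized counts. Above the highest negative control in all 3 samples were 68 of the 602 miRNAs (11.3%), and 3 of the 8 described here, namely miR-21, miR-210 and miR-132. miR-34a and miR-221 exceeded it in the wild type sample alone, and miR-31, miR-212 and miR-222 in none. The limit was highest in the Dicer-cKO sample, which also had the fewest miRNA counts.

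**Figure D1:**
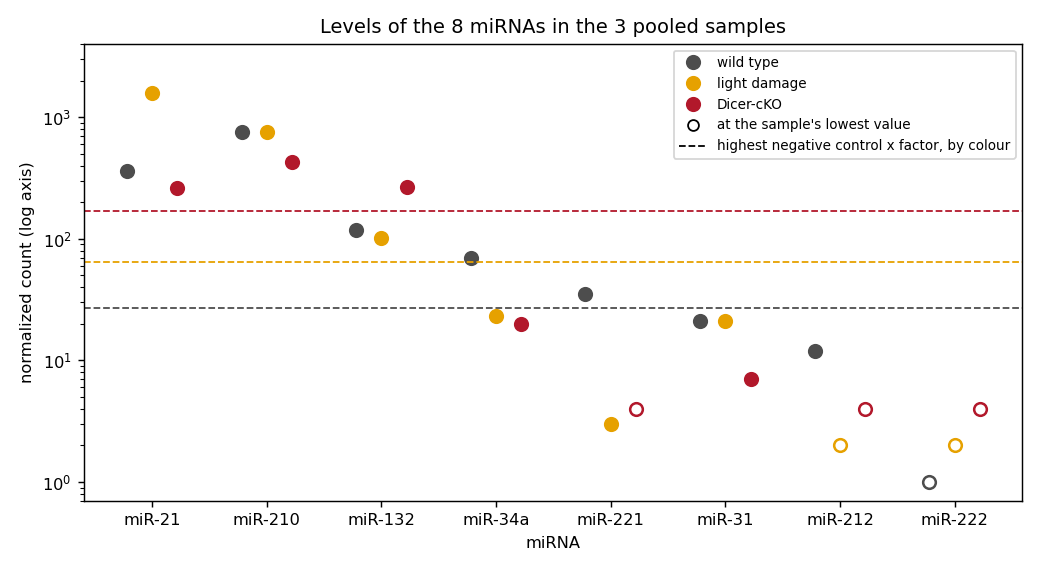
Normalized counts (vertical log axis) of the 8 miRNAs (horizontal axis) in wild type, LD and Dicer-cKO MG, 1 pooled sample each. Open points are at the lowest value of their sample and dashed lines mark the highest negative control times the sample's factor. Only miR-21, miR-210 and miR-132 lie above their sample's line in all 3 samples, and miR-21 after LD is the highest point at 1574.

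Counts were read for 7 miRNAs that mark MG (miR-204, miR-125b-5p, miR-9, miR-99a, miR-135a, miR-100 and miR-23a). Their rows had been named by an earlier match to the study's bar charts, which show miRNAs highly expressed in MG. High counts in these rows thus follow partly from how the rows were named, and do not check the MG label. All 7 were above the highest negative control in every sample, and miR-204 ranked 1 of 602 in wild type, 2 after LD and 1 in Dicer-cKO MG. Their summed count was 512319 in wild type (65.4% of all miRNA counts), 134451 after LD (28.7%) and 75928 in Dicer-cKO MG (38.8%). miR-124, a neuronal miRNA and the only one of 4 on the list for other neurons with a named row, went the other way, from 1354 to 5506 and 12106 counts. The study charts it among the miRNAs that increased after LD, so its rise is no separate check. The sums include miR-720, which the study describes as a tRNA fragment no longer counted among miRNAs. It held 3.05% of the wild type count, 36.9% of the LD count and 5.61% of the Dicer-cKO count, which lowers the LD share most. These shifts accompany every result below, and their part in it was not tested. The miRNAs marking photoreceptors, immune cells, red blood cells and blood vessels were not analysed here, because no table used here pairs their names with rows.

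After LD, miR-21 was the member that stood out, with more than 4 times its wild type count, while miR-210 and miR-132 had counts close to wild type in the authors' scaling. miR-34a and miR-221 had lower counts, but were above the highest negative control in wild type alone. By the call used here, a ratio of at least 2 in either direction whose counting interval leaves out 1, 1 of the 8 was higher, 2 were lower and 5 were neither. The background was taken over 223 miRNAs averaging 20 normalized counts or more, of which 15.7% were called higher and 50.7% lower. Of the 8, 4 met this limit (miR-21, miR-210, miR-132 and miR-34a), and miR-221, which was called lower, did not. The median log2 change (pseudocount 1) of the 8 was -0.12, compared with -1.08 over the 223. It was -0.22 without miR-222, which was at the lowest value in both samples. Nothing is read from the gap to the 223, because only 4 of the 8 met the limit that defines them. Moreover, miR-31, miR-212 and miR-222 were below the highest negative control in every sample.

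miR-21 had 358 normalized counts in wild type, 1574 after LD and 264 in Dicer-cKO MG. Thus the LD sample was high and, in the authors' scaling, the other samples were low and near each other. The ratio of LD to wild type was 4.4 (95% interval 3.85 to 5.03). Among the 68 miRNAs above the negative controls in all 3 samples, called well measured from here on, whose median ratio was 0.679, that of miR-21 was the 7th largest. Among the 223 miRNAs it was the 20th largest. In its rank by count, which no scaling can change, miR-21 moved from 63 of 602 in wild type to 29 after LD and was at 57 in Dicer-cKO MG. It made up 0.0457% of the summed miRNA count, miR-720 included, in wild type, 0.336% after LD and 0.135% in Dicer-cKO MG. Before the authors' factor, 310 counts in wild type stood against 773 after LD. miR-21 was at least 2-fold higher after LD under all 12 scalings tried, from 2.20-fold with the 6 highest ERCC rows as reference to 11.3-fold with the same total count without miR-720. miR-720, which alone held 36.9% of the LD count, is among the rows named by the earlier match.

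miR-210, the hypoxia miRNA, had 758 counts in wild type, 752 after LD and 427 in Dicer-cKO MG. Wild type and LD samples were nearly equal and the Dicer-cKO sample was the low one. Its LD ratio was 0.992 (0.870 to 1.13), a difference within counting error in the authors' scaling. Relative to the median of the 68 well measured miRNAs it was 1.46-fold higher, and the median was below 1. Its direction depended on the reference, with 6 of the 12 scalings above 1 and 6 below, between 0.497 and 2.55. It ranked 44 of 602 in wild type and 40 after LD.

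miR-132, the activity-induced miRNA, had 118 counts in wild type, 101 after LD and 268 in Dicer-cKO MG. Here the Dicer-cKO sample was the high one. The LD ratio of 0.856 (0.603 to 1.22) was within counting error, with a rank of 99 in wild type and 101 after LD. As for miR-210, 6 of the 12 scalings put it above wild type and 6 below, between 0.429 and 2.2. It was called lower with no scaling or the ERCC rows and higher with the same total without miR-720.

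Within one sample the count of a member relative to another does not depend on the factor, although the probes may differ in efficiency, so only the shift of such a ratio between samples can be read. The ratio of miR-21 to miR-210 was 0.472 (0.412 to 0.542) in wild type, 2.09 (1.85 to 2.38) after LD and 0.618 (0.441 to 0.862) in Dicer-cKO MG. That is a 4.43-fold shift after LD, and the intervals of wild type and LD did not overlap. The ratio of miR-21 to miR-132 shifted 5.14-fold, from 3.03 (2.42 to 3.84) to 15.6 (11.6 to 21.0). In contrast, miR-210 to miR-132 was 6.42 (5.21 to 8) in wild type and 7.45 (5.48 to 10.1) after LD, a shift of 1.16-fold with overlapping intervals.

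**Figure D2:**
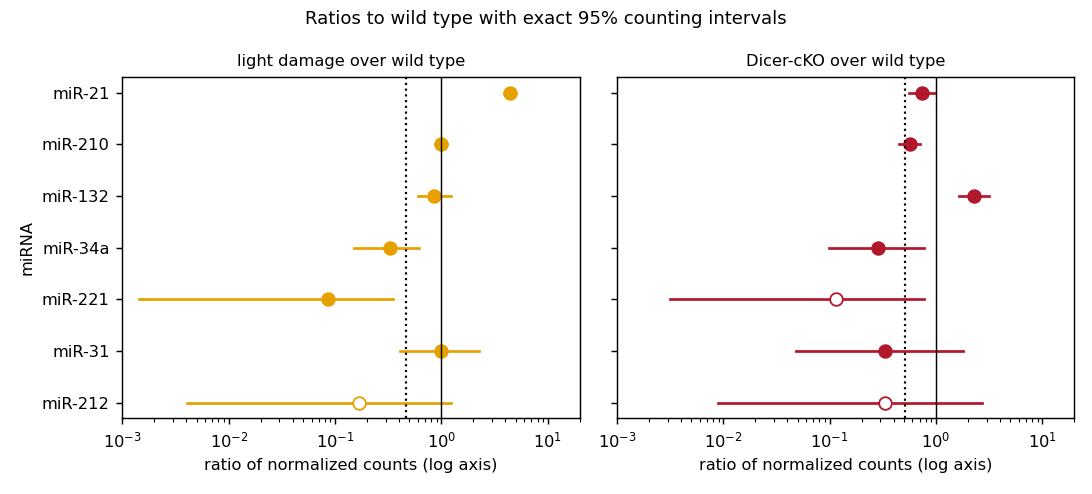
Ratios of normalized counts (horizontal log axis) of LD to wild type and of Dicer-cKO to wild type for the 7 members (vertical axis) not at the lowest value throughout, with exact 95% counting intervals. Open points have the lowest value in the treated sample, solid lines mark 1 and dotted lines the median of 223 miRNAs (0.463 and 0.508). miR-21 lies right of 1 after LD and miR-132 after Dicer deletion, and miR-34a lies left of 1 in both panels.

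miR-34a, the p53 target, had 70 counts in wild type, 23 after LD and 20 in Dicer-cKO MG. Here wild type was high and both others were low, with LD ratio 0.329 (0.151 to 0.609). Before scaling these were 60.6, 11.3 and 4.52 counts, and the latter 2 are below the highest negative control. Had the LD sample stood at that control, the wild type would be only 1.09-fold higher. The LD ratio was below 1 under all 12 scalings and at most 0.5 under 8.

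miR-221 had 35 counts in wild type, 3 after LD and 4, the lowest value, in Dicer-cKO MG. Wild type was again high, at 1.3 times the highest negative control, and the other samples gave 1.47 counts or fewer before scaling. The LD ratio was 0.0857 (0.00144 to 0.353). Its partner miR-222, made from the same genomic cluster, was at the lowest value in all 3 samples (1, 2 and 4 normalized counts), so that no ratio is given. Against the highest negative control after LD no fold can be stated for miR-221, because 35 is below 64.1.

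miR-31 had 21 counts in wild type, 21 after LD and 7 in Dicer-cKO MG, and miR-212 had 12, 2 and 4, the latter 2 being lowest values. Wild type and LD were equal for miR-31, with ratio 1 (0.404 to 2.24). For miR-212 the LD ratio was 0.167 (0.00406 to 1.24). Neither miRNA reached the highest negative control in any sample, so no difference is read for either. A ratio of miR-132 to miR-212, which share seed and locus, is therefore not read either.

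After Dicer deletion, miR-132 was the member with the higher count, and miR-21 and miR-210 were moderately lower in the authors' scaling. miR-34a and miR-221 had lower counts, again below the highest negative control outside wild type, and the one wild type sample sets both of their ratios. Again 1 of the 8 was called higher, 2 lower and 5 neither, beside 18.4% called higher and 48.4% lower over the 223 miRNAs. The median log2 change was -1.10 over the 8 (-1.38 without miR-222) and -0.97 over the 223, but nothing is read from the former, since it rests on miR-212, which was below the highest negative control in every sample. Both comparisons use the same wild type sample.

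The count of miR-132 was 2.27-fold that of wild type (1.64 to 3.17), at a rank of 56 instead of 99, and its share of all miRNA counts was 0.137% instead of 0.0151%. Its rank among the 68 well measured miRNAs is not read. Entry to them took more than 170.7 normalized counts in the Dicer-cKO sample, and miR-132 had 118 in wild type. It was thus among them only through its higher Dicer-cKO count. Its ratio was the 45th largest of the 223 miRNAs, whose median ratio was 0.508. It was higher under 9 of the 12 scalings, from 0.419 with the 6 highest ERCC rows to 9.35-fold with the same total count without miR-720. Before the factor it stood at 60.6 counts against 102 in wild type, at 1.57 times the highest negative control. miR-212, with the same seed, was at the lowest value in this sample, and miR-124, the neuronal miRNA given above, was 8.94-fold higher.

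miR-21 was lower in Dicer-cKO than in wild type MG, with a ratio of 0.737 (0.552 to 0.979), and miR-210 had a ratio of 0.563 (0.452 to 0.701). Each interval left out 1, but neither difference came to 2-fold in the authors' scaling. Under 4 of the 12 scalings each of the 2 was higher instead. The ratio of miR-21 ran from 0.136 to 3.03 and that of miR-210 from 0.104 to 2.32, and both were called lower with no scaling, the 6 highest ERCC rows or the 3 nmiR rows as reference, and miR-210 also with B2m alone. Both were called higher with the same total count, with or without miR-720, and miR-21 also with the median of ratios. Their ratios were 1.61 and 1.23 times the median of the 68 well measured miRNAs, and the ranks moved from 63 to 57 and from 44 to 47. The ratio of miR-21 to miR-132 was 0.985 (0.677 to 1.43) in Dicer-cKO MG, a 0.325-fold shift from wild type with intervals that did not overlap. miR-21 stood at 1.55 times the highest negative control in this sample and miR-210 at 2.5 times. miR-34a had a ratio of 0.286 (0.0984 to 0.773), but 10 of the 12 scalings were below 1 and 2 above. The ratio of miR-221 was 0.114 (0.00313 to 0.767). Against the highest negative control of the Dicer-cKO sample, 170.7, no fold can be stated for miR-34a or miR-221. For miR-31 the ratio was 0.333 (0.0479 to 1.78).

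**Figure D3:**
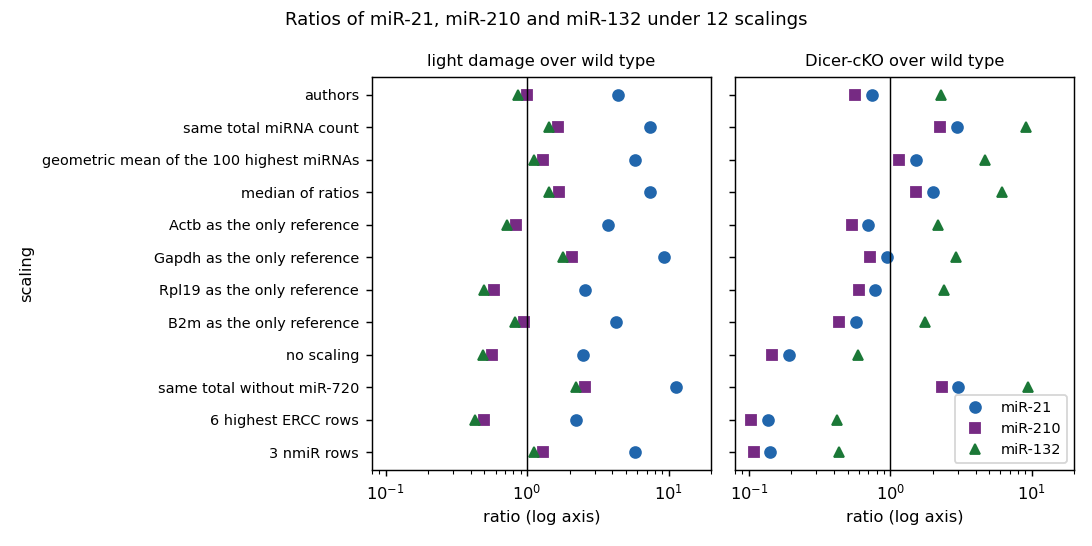
Ratios to wild type (horizontal log axis) of miR-21, miR-210 and miR-132 in LD and Dicer-cKO MG, recomputed with 12 references (vertical axis). The lines mark 1. After LD miR-21 stays right of 1 throughout (2.20 to 11.3), whereas miR-210 and miR-132 cross it, and in Dicer-cKO MG all 3 cross it.

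Compared directly, LD and Dicer-cKO MG differed in opposite directions in miR-21 and miR-132. Of the 8, 1 was called higher after LD than after Dicer deletion and 1 lower, beside 28.3% of the 223 miRNAs in each direction. For miR-21 the LD count was 5.96 times the Dicer-cKO count (4.56 to 7.85), and at least 2.49 times under all 12 scalings. This ratio was the 3rd largest of the 68 well measured miRNAs and the 27th largest of the 223. For miR-132 the same ratio was 0.377 (0.254 to 0.558). Its place among the 68 is not read, since miR-132 entered them only through its Dicer-cKO count. Of the 223 miRNAs, 26% had a lower ratio. The ratio of miR-132 ran from 0.157 to 2.58 over the scalings and was below 1 under 10 of the 12. The lower call was lost with Gapdh alone, no scaling or the ERCC rows, and with the 3 nmiR rows miR-132 was called higher. miR-210 was 1.76-fold (1.4 to 2.21) higher after LD, close to the median of 1.34 over the 68. However, its ratio ran from 0.735 to 12.1 over the scalings and was below 1 under 2 of the 12. miR-34a differed by less than counting error (1.15, 0.324 to 3.72).

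**Figure D4:**
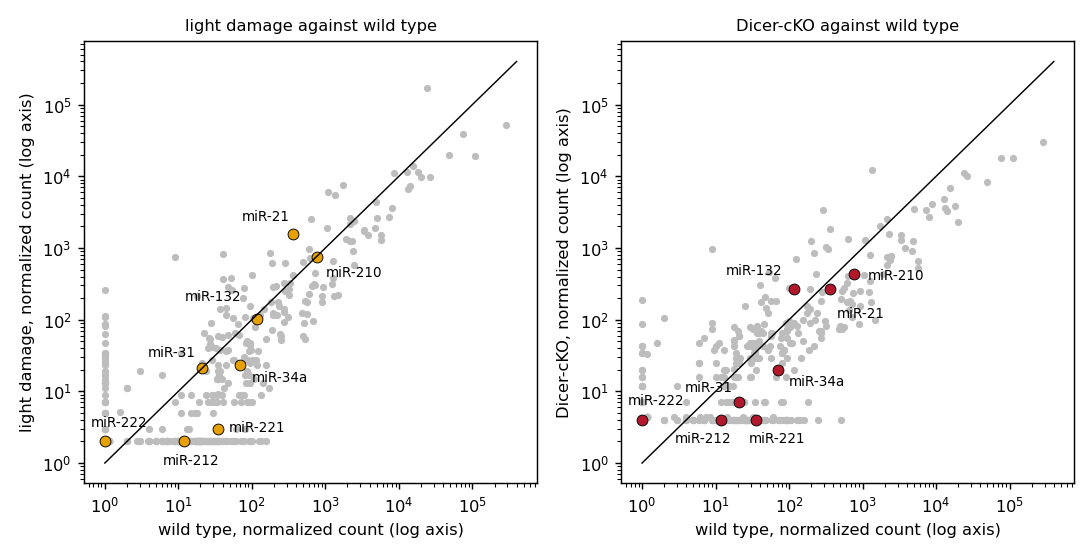
Normalized counts of the 602 miRNAs in wild type (horizontal log axis) against LD (left) and Dicer-cKO MG (right; vertical log axes), with the 8 described miRNAs in color and the line of equal counts. The majority of well measured miRNAs lie below the line, at median ratios of 0.679 and 0.457. miR-21 lies above it after LD only and miR-132 in Dicer-cKO MG only, and miR-222 lies at the lowest values.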

How the data were processed

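MG miRNAs of 3 pooled samples, 1 per condition, had been measured on the NanoString nCounter platform. The deposited values are a signal: counts of molecules that the authors normalized in nSolver 4.0 against 4 housekeeping mRNAs, 8 negative and 6 positive controls, re-normalizing the earlier samples with LD. No source used here gives how the controls entered. Each sample's factor was recovered from the rows that keep 2 decimals and divided out. Ratios were taken without a pseudocount, and their exact 95% Clopper-Pearson intervals from the counts before scaling, which leave out the error of the subtracted background and of pooling. Recovery of the factor was tested on simulated data. Intervals were tested on simulated counts without a subtracted background, where at least 20 counts before scaling were expected in both samples. The ratios of miR-34a, miR-221, miR-31 and miR-212 to wild type rest on lower counts, which that test did not cover. A call needed a ratio of 2 and an interval without 1, and none was made where both samples had their lowest value. Nothing else was tested, as 1 sample per condition allows none. The 8 members and all lists were chosen with earlier results of these data known. The rule for named miRNAs took all 8 members, and its further lists (other p53, hypoxia, inflammation and activity linked miRNAs, passenger strands, shared seeds and the nearest patterns) could not be named from the tables used here. Alternatives were 11 other scalings, subtraction of the 10th percentile, folds of 1.5 and 3, no interval, other filters and pseudocounts of 10 and 20; 3 of the scalings (total without miR-720, ERCC rows, nmiR rows) and the demand that the higher sample exceed the highest negative control were chosen after seeing the data. Tamoxifen was given on 3 days per the labels and on 4 in the study's methods. Scripts ran in Python 3.11.15 with scipy 1.17.1 for intervals, pandas 2.3.3 for tables, numpy 2.4.6 for arithmetic and matplotlib 3.10.9 for plots.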

Additional observations from a re-analysis of the deposited data

Results flagged for a closer look

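In the authors' scaling, miR-21 moved in opposite directions from wild type MG, to a ratio of 4.4 in LD MG and 0.737 in Dicer-cKO MG, and both intervals left out 1. With 1 sample per condition this difference was not tested, and both ratios share the wild type sample. The Dicer-cKO ratio was above 1 under 4 of the 12 scalings, whereas the LD ratio was above 1 under all 12.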

How the results depend on the processing

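The higher count of miR-21 in LD MG, relative to both other samples, and the lower counts of miR-34a in LD MG and of miR-221 in LD and Dicer-cKO MG, relative to wild type, kept their direction under all 12 scalings, although both miRNAs were above the highest negative control in wild type alone, whereas the direction of the LD ratios of miR-210 and miR-132, of the Dicer-cKO ratios of miR-21, miR-210, miR-132 and miR-34a, and of the LD to Dicer-cKO ratios of miR-210 and miR-132 depended on the scaling. The cause was not tested. Another scaling shifts the ratios of all miRNAs alike. The counts of members called below are given without the share of all miRNAs under each scaling. Nothing particular to the members is read from them. Members called higher in LD than in wild type MG numbered 1, but 2 with Gapdh as the only reference and 4 with the same total without miR-720. Members called lower there numbered 2, but 1 with the same total, the median of ratios, Gapdh or the total without miR-720, 3 with Rpl19 or the fold alone, 4 with no scaling and 5 with the 6 highest ERCC rows. Members called higher in Dicer-cKO than in wild type MG numbered 1, but 3 with the same total with or without miR-720, 2 with the median of ratios, and 0 with B2m, no scaling, the 6 ERCC rows, the 3 nmiR rows or a fold of 3. Members called lower there numbered 2, but 0 with the same total with or without miR-720, the geometric mean of the 100 highest miRNAs or the median of ratios, 6 with no scaling, 7 with the ERCC or the nmiR rows, 1 with the 10th percentile subtracted, 3 with B2m or a fold of 1.5 and 4 by the fold alone. Members called higher in LD than in Dicer-cKO MG numbered 1, but 2 with Gapdh, B2m, a fold of 1.5 or the fold alone, 3 with no scaling or the ERCC rows and 5 with the nmiR rows. Members called lower there numbered 1, but 0 with Gapdh, no scaling, the ERCC rows, the nmiR rows or a fold of 3. The ratio of miR-132 in Dicer-cKO to wild type MG turned to 0.593 with no scaling, 0.419 with the ERCC rows and 0.434 with the nmiR rows, and its LD to Dicer-cKO ratio turned to 1.02 and 2.58 with the last 2. The Dicer-cKO ratio of miR-34a turned to 1.14 with the same total and 1.18 without miR-720. Nothing particular to the members is read from their medians under another scaling either. With a pseudocount of 1, these medians need not move by the full shift of the scaling. The members' median log2 change in LD MG turned to 0.62 with the same total, 0.27 with the 100 highest miRNAs or the nmiR rows, 0.63 with the median of ratios, 0.94 with Gapdh and 1.23 without miR-720, and was -0.36 with Actb, -0.89 with Rpl19, -0.93 with no scaling and -1.11 with the ERCC rows. In Dicer-cKO MG it turned to 0.79, 0.24 and 0.83 with the same total, the median of ratios and the total without miR-720, and was -0.14 with the 100 highest miRNAs, -0.77 with Gapdh, -1.43 with B2m, -2.67 with no scaling, -3.08 with the ERCC rows, -3.04 with the nmiR rows, and -0.73 and -0.51 with pseudocounts of 10 and 20. Without a filter on low values 37.9%, 29.7% and 25.2% of all miRNAs passed 2-fold in the 3 comparisons (66.4%, 66.8% and 56.5% with it). The wild type ratio of miR-132 to miR-212, which is not read because miR-212 was below the highest negative control, was 9.83, and 36.3 with the 10th percentile subtracted. No paired analysis was possible because single pools stood for the conditions, and for the same reason no sample could be left out. miR-31, miR-212 and miR-222 were below the highest negative control in every sample, and miR-34a and miR-221 outside wild type.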

Other observations

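The control rows also bound the constant subtracted from each sample. The rows share decimals that are eighths of a count, as a mean of 8 controls would leave. If the constant was that mean over the 8 ERCC rows of lowest mean, it was at least 12.6 counts in wild type, 6.5 in LD and 6.38 in Dicer-cKO MG. Of these 8 rows, 4 were above the constant in wild type, 2 in LD and 1 in Dicer-cKO MG. The row ERCC_00019.1 was the highest of the 8 in all 3 samples, at 23.4, 31.5 and 38.6 counts, and it sets the limit used for the 8 miRNAs. The next row by mean, ERCC_00034.1, had 28.4, 55.5 and 67.6 counts and was counted with the positive controls. Without ERCC_00019.1, the highest of the rows taken as negative had 18.4 counts in wild type, 5.5 in LD and 1 in Dicer-cKO MG. Before scaling, miR-34a had 60.6, 11.3 and 4.52 counts, more than these in every sample. Its place below the limit outside wild type thus rests on that 1 row.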
